A study of Homo sapiens with 6 samples.

Results

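The dual-specificity MAP kinase phosphatases DUSP1, DUSP2, DUSP4, DUSP5, DUSP6, DUSP10 and DUSP16 and the ERK feedback genes SPRY1, SPRY2 and SPRED1 were followed in Karpas-45 cells. These 10 genes were taken by symbol from the 78932 gene identifiers with read counts. The libraries labelled MEF2C hairpin carried a GFP-linked short hairpin RNA, delivered by lentivirus and directed at the transcription factor MEF2C, and were compared with libraries labelled scramble control. Karpas-45 is an established human T-lineage leukemia cell line. The labels give the genotypes as MEF2C KD and WT and both groups as untreated, and the GFP-positive sort was made 120 hours after transduction. Each group held 3 libraries that the labels call technical replicates, from 1 cell line and 1 MEF2C hairpin (shMEF2CKD2). The p-values therefore measure only the spread between such replicates.

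MAP kinases switch on when a threonine and a tyrosine in their activation loop are phosphorylated, and MAP kinase phosphatases remove both phosphates. Many of these phosphatases are themselves transcribed in response to MAP kinase activity, so their mRNA forms a negative feedback loop. Sprouty proteins restrain the path from receptor tyrosine kinases through RAS and RAF to ERK, and Spred proteins recruit neurofibromin, the product of NF1, to switch off RAS. In T cells ERK, JNK and p38 relay signals from the T-cell receptor, and MEF2C is a known substrate of p38 and of ERK5.

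The feedback genes did not move as 1 block. SPRY1, SPRY2, DUSP16 and DUSP1 rose in MEF2C hairpin libraries, SPRED1 and DUSP10 fell, and DUSP2, DUSP5 and DUSP6 did not pass the test. DUSP4 was at the limit of detection and was not tested. Thus 9 of the 10 members entered the test and 6 were called at an adjusted p under 0.05, namely 4 with higher and 2 with lower levels. Across all 17677 tested genes 28.8% were called in either direction, with 13.5% called higher and 15.3% called lower. The median log2 fold change of the 9 tested members was -0.02, beside 0.00 for all tested genes, and their median absolute log2 fold change was 0.30 against 0.13.

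**Figure D1:**
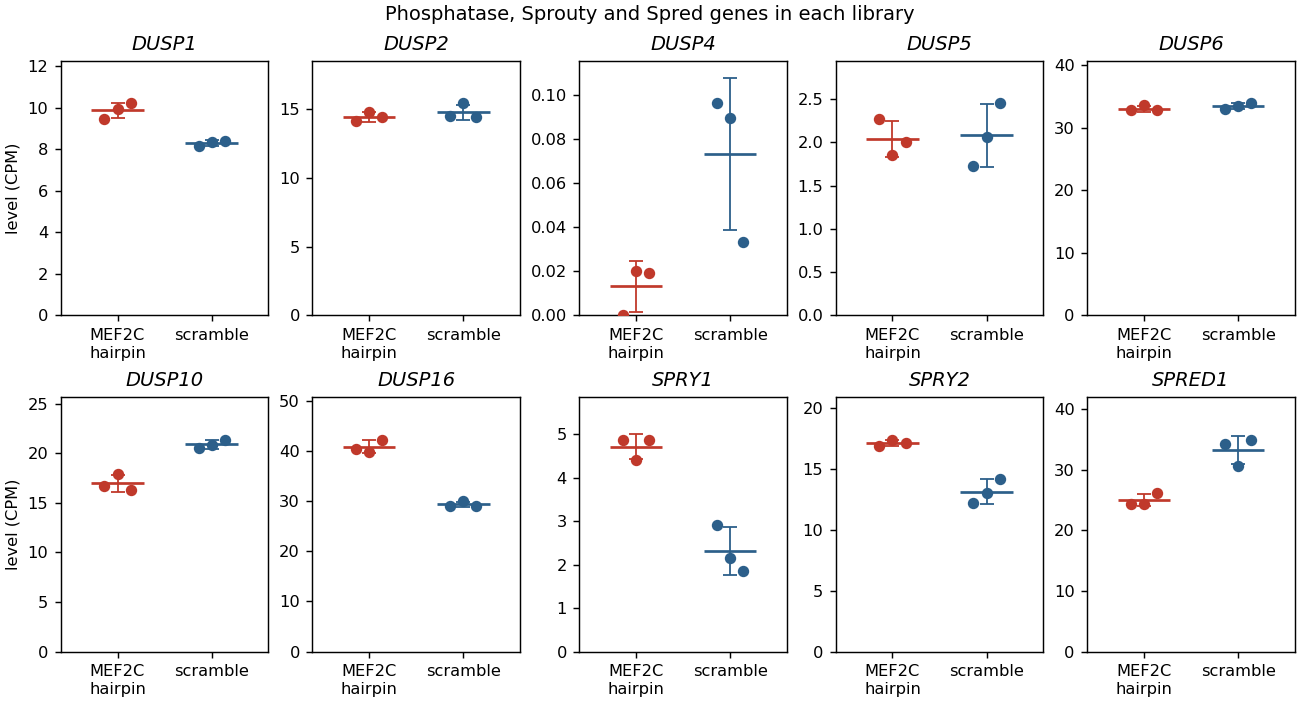
Level of each of the 10 genes in CPM (reads per 1000000 reads of the scaled library total, linear axes from 0) in the 3 MEF2C hairpin and the 3 scramble libraries. Points are libraries, horizontal lines are group means and bars are SD. Among the tested genes the groups do not overlap for DUSP1, DUSP10, DUSP16, SPRY1, SPRY2 and SPRED1, whereas they interleave for DUSP2, DUSP5 and DUSP6; DUSP4 rests on at most 6 reads in a library.

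Levels are given as CPM, the reads of a gene per 1000000 reads of the TMM-scaled library total. Gene reads ran from 50991704 to 97077335 in MEF2C hairpin libraries and from 45560303 to 63228784 in scramble libraries. The tested members received between 92 and 3940 reads in a library. MEF2C itself received 2, 0 and 0 reads in MEF2C hairpin replicates 1 to 3 and 2, 1 and 0 reads in scramble replicates 1 to 3, so that it lay under the floor of 3 reads in every library and cannot check the labels. The T-lineage marker CD3E stood at 580 ± 11.6 CPM in MEF2C hairpin and 593 ± 10.5 CPM in scramble libraries (SD, n = 3 each; edgeR adjusted p = 0.271), and CD2, the lowest of the 9 such markers, at 3.55 ± 0.556 CPM and 2.73 ± 0.441 CPM. The summed level of the 9 T-lineage markers was 2470 to 2510 CPM in MEF2C hairpin libraries and 2360 to 2420 CPM in scramble libraries. Of the 9 markers, 7 were called higher at an adjusted p under 0.05, beside 13.5% of all tested genes. The changes of single markers were larger than that of the sum, with CD5 at 18.6 ± 1.5 CPM in MEF2C hairpin and 8.74 ± 0.587 CPM in scramble libraries (SD, n = 3 each; edgeR adjusted p = 7.55e-15). CD7 likewise stood at 59.7 ± 0.634 CPM in MEF2C hairpin and 39.6 ± 1.84 CPM in scramble libraries (SD, n = 3 each; edgeR adjusted p = 5.09e-15). The part of these shifts in the members' values was not tested, and in bulk RNA fewer cells of a type and less RNA per cell cannot be told apart. Lists of 6 markers each for other cells summed to 4.03 to 4.18 CPM in MEF2C hairpin and 3.03 to 3.60 CPM in scramble libraries for B cells, and to 1.64 to 2.54 CPM and 1.78 to 2.13 CPM for myeloid cells. The erythroid list summed to 0.909 to 1.83 CPM in MEF2C hairpin and 0.567 to 6.29 CPM in scramble libraries. The list for the embryonic kidney cells that made the virus summed to 2.33 to 2.93 CPM in MEF2C hairpin and 2.65 to 3.63 CPM in scramble libraries, with SALL1 and LIN28B at 0 reads in all 6. Of its 2 tested markers, GPC3 rose to 0.660 ± 0.101 CPM in MEF2C hairpin libraries, against 0.341 ± 0.104 CPM in scramble libraries (SD, n = 3 each; edgeR adjusted p = 0.0351). CRABP2 fell to 2.04 ± 0.302 CPM in MEF2C hairpin libraries, against 2.93 ± 0.454 CPM in scramble libraries (SD, n = 3 each; edgeR adjusted p = 0.0153). Their part in the members' values was not tested. The B-cell marker CD22 was likewise at 0 reads in all 6.

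The Sprouty genes gave the largest increase among the members. SPRY1, an inhibitor of receptor tyrosine kinase signalling (ENSG00000164056.11, chromosome 4, 123396795 to 123403760 in GRCh38), measured 4.88, 4.40 and 4.88 CPM in MEF2C hairpin libraries, against 2.92, 2.15 and 1.85 CPM in scramble libraries. Every MEF2C hairpin library lay above every scramble library, and scramble replicate 1 was the highest of its group. The log2 fold change was 1.02 (SE 0.145), a 2.03-fold level with a 95% interval of 1.65 to 2.49, and the edgeR adjusted p was 6.02e-07. SPRY1 is a low gene, resting on 253 to 434 reads in MEF2C hairpin libraries and 96 to 182 reads in scramble libraries.

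SPRY2, its better expressed relative on chromosome 13 (ENSG00000136158.12, 80335976 to 80340951), measured 16.9, 17.4 and 17.1 CPM in MEF2C hairpin libraries and 12.2, 13.0 and 14.2 CPM in scramble libraries. The groups again did not overlap, and the scramble libraries were the more scattered. SPRY2 rose 1.31-fold (95% interval 1.19 to 1.43; log2 fold change 0.39, SE 0.0650, adjusted p = 1.17e-05 by edgeR).

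SPRY4, a further Sprouty gene outside the 10, had the highest Sprouty level per length, at 15.8 ± 0.246 CPM per kilobase of merged exons in MEF2C hairpin and 10.4 ± 0.218 in scramble libraries (SD, n = 3 each). It measured 103, 105 and 102 CPM in MEF2C hairpin libraries and 66.7, 69.3 and 68.9 CPM in scramble libraries. Its groups were far apart, and SPRY4 rose by log2 0.60 (SE 0.0300, adjusted p = 2.17e-18 by edgeR). SPRY3, the remaining Sprouty gene, lies in a region shared by the sex chromosomes and stayed near detection with 4 to 22 reads in a library. It measured 0.226 ± 0.0423 CPM in MEF2C hairpin and 0.139 ± 0.0471 CPM in scramble libraries (SD, n = 3 each; edgeR adjusted p = 0.417). SPRY1, SPRY2 and SPRY4 together came to 125 ± 1.53 CPM in MEF2C hairpin and 83.8 ± 1.69 CPM in scramble libraries (SD, n = 3 each), a ratio of 1.5. All 3 MEF2C hairpin libraries were higher, as for each of the 3 genes alone.

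The Spred genes, which share a Sprouty-related domain with the Sprouty genes, gave no increase past the threshold. SPRED1, a brake on RAS that works through neurofibromin (ENSG00000166068.13, chromosome 15, 38252326 to 38357249), measured 24.4, 24.4 and 26.2 CPM in MEF2C hairpin libraries, against 34.2, 30.7 and 35.0 CPM in scramble libraries. All MEF2C hairpin libraries lay under all scramble libraries. SPRED1 fell to 0.746 of the scramble level (95% interval 0.695 to 0.802; log2 fold change -0.42, SE 0.0509, adjusted p = 2.22e-08 by edgeR).

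SPRED2 measured 90.6, 85.7 and 80.6 CPM in MEF2C hairpin and 83.4, 89.0 and 83.2 CPM in scramble libraries. The groups interleaved, and the log2 fold change of 0.01 had a 95% interval of -0.06 to 0.08 (edgeR adjusted p = 0.881). SPRED3 measured 3.49 ± 0.180 CPM in MEF2C hairpin and 3.31 ± 0.290 CPM in scramble libraries (SD, n = 3 each; log2 fold change 0.08, 95% interval -0.19 to 0.35, edgeR adjusted p = 0.705).

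Read ratios within a library, in which no scaling between libraries enters, restate the values above. Reads of SPRY1 per read of SPRED1 were 0.200, 0.180 and 0.186 in MEF2C hairpin libraries and 0.0853, 0.0700 and 0.0529 in scramble libraries. For SPRY2 per SPRED1 the ratios were 0.694, 0.714 and 0.655 in MEF2C hairpin libraries and 0.358, 0.422 and 0.406 in scramble libraries. The groups did not overlap for either ratio, which followed from the separate groups of each gene and adds no test.

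**Figure D2:**
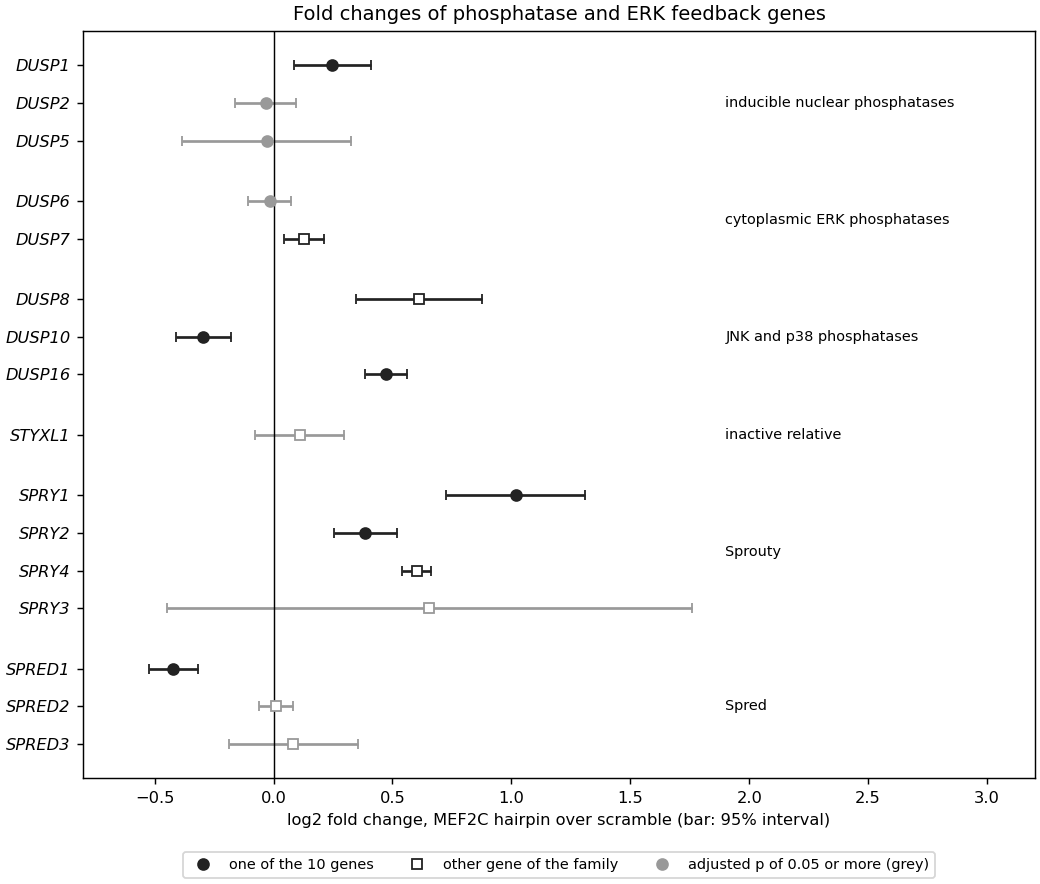
Log2 fold change of MEF2C hairpin over scramble libraries with its 95% interval for the tested phosphatase, Sprouty and Spred genes, grouped by class. Filled circles are the members, open squares other genes of the family, and grey marks have an adjusted p of 0.05 or more. SPRY1, SPRY2 and SPRY4 lie to the right of 0 and SPRED1 to the left; DUSP10 lies to the left of 0 while DUSP8 and DUSP16 of the same class lie to the right.

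The phosphatases that act mainly on JNK and p38 moved in both directions. DUSP16, also called MKP-7 (ENSG00000111266.9, chromosome 12, 12474210 to 12562383), measured 40.5, 39.9 and 42.3 CPM in MEF2C hairpin libraries, against 29.1, 30.0 and 29.1 CPM in scramble libraries. The groups did not overlap, and the gap between their means was larger than the SD of either group (1.22 CPM in MEF2C hairpin and 0.510 CPM in scramble libraries). DUSP16 rose 1.39-fold (95% interval 1.31 to 1.48; log2 fold change 0.47, SE 0.0437, adjusted p = 4.50e-11 by edgeR), the smallest adjusted p among the members.

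DUSP10, also called MKP-5 and known in mice as a brake on JNK in T cells (ENSG00000143507.18, chromosome 1, 221701424 to 221742176), measured 16.7, 17.9 and 16.3 CPM in MEF2C hairpin libraries and 20.5, 20.9 and 21.4 CPM in scramble libraries. All MEF2C hairpin values lay under all scramble values. DUSP10 fell to 0.815 of the scramble level (95% interval 0.752 to 0.884; log2 fold change -0.29, SE 0.0575, adjusted p = 0.000103 by edgeR).

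Reads of DUSP16 per read of DUSP10 were 2.42, 2.23 and 2.60 in MEF2C hairpin libraries and 1.42, 1.44 and 1.36 in scramble libraries. The ratio was higher in every MEF2C hairpin library, as the separate groups of the 2 genes already fixed. DUSP8, the remaining gene of this class and not among the 10 genes, measured 4.01, 4.28 and 4.10 CPM in MEF2C hairpin libraries against 2.61, 2.76 and 2.75 CPM in scramble libraries. It rose by log2 0.61 (SE 0.131, adjusted p = 0.00033 by edgeR).

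Among the inducible nuclear phosphatases DUSP1, DUSP2 and DUSP5, which were tested, only DUSP1 passed. DUSP1, or MKP-1, an immediate early gene whose product acts on ERK, JNK and p38 (ENSG00000120129.6, chromosome 5, 172768090 to 172771195), measured 9.46, 9.95 and 10.2 CPM in MEF2C hairpin libraries, against 8.16, 8.36 and 8.41 CPM in scramble libraries. The groups did not overlap, although they lay closer than those of the genes above. The log2 fold change was 0.25 (SE 0.0807, 95% interval 0.08 to 0.41, edgeR adjusted p = 0.0176). The DUSP1 call did not hold in 4 of 16 alternatives, in which its log2 fold change was 0.20 to 0.24. The adjusted p was 0.0668 in limma-voom after cyclic loess, 0.0666 and 0.0523 without MEF2C hairpin replicate 2 or 3, and 0.0561 without scramble replicate 1. Over all 16 it lay between 0.0100 and 0.0668.

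DUSP2, or PAC-1, which activated lymphocytes express (ENSG00000158050.6, chromosome 2, 96143166 to 96145440), measured 14.1, 14.8 and 14.4 CPM in MEF2C hairpin and 14.5, 15.4 and 14.4 CPM in scramble libraries. The values interleaved, with a log2 fold change of -0.03 and a 95% interval of -0.16 to 0.10 (edgeR adjusted p = 0.761). DUSP5, a nuclear phosphatase selective for ERK (ENSG00000138166.6, chromosome 10, 110497838 to 110511544), measured 2.27, 1.86 and 2.00 CPM in MEF2C hairpin and 1.73, 2.06 and 2.45 CPM in scramble libraries. Its log2 fold change of -0.03 had a wider 95% interval of -0.38 to 0.32, since it rested on 92 to 184 reads in a library (edgeR adjusted p = 0.932).

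DUSP4, or MKP-2 (ENSG00000120875.9, chromosome 8, 29333064 to 29350668), received 0, 2 and 1 reads in MEF2C hairpin and 6, 4 and 2 reads in scramble libraries. The summed 3 and 12 reads gave 0.0143 CPM in MEF2C hairpin libraries (exact Poisson 95% interval 0.00295 to 0.0418) and 0.0719 CPM in scramble libraries (0.0371 to 0.126). The ratio of these sums was 0.199, with an exact 95% interval of 0.036 to 0.736 that covers counting error only. A floor of 3 reads corresponded to 0.0304 to 0.0578 CPM in MEF2C hairpin libraries and 0.0481 to 0.0673 CPM in scramble libraries, so DUSP4 was under its floor in all 3 MEF2C hairpin libraries and in scramble replicate 3.

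DUSP6, or MKP-3, the cytoplasmic phosphatase of ERK and a widely used readout of ERK activity (ENSG00000139318.8, chromosome 12, 89347232 to 89353271), did not pass the test. It measured 32.8, 33.6 and 32.8 CPM in MEF2C hairpin and 33.0, 33.5 and 33.9 CPM in scramble libraries. The groups interleaved, and the log2 fold change of -0.02 had a 95% interval of -0.11 to 0.07 (edgeR adjusted p = 0.828), so that changes beyond 0.929-fold or 1.05-fold lay outside the interval. Exons of an overlapping gene cover 40.5% of the 4632 exonic bases of DUSP6, and without the strand setting of the counting its reads are less certain; no other member has such an overlap in GENCODE 29.

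DUSP7, the other cytoplasmic ERK phosphatase with enough reads, measured 41.6 ± 0.658 CPM in MEF2C hairpin and 38.2 ± 1.36 CPM in scramble libraries (SD, n = 3 each; log2 fold change 0.13, SE 0.0415, adjusted p = 0.0175 by edgeR). The DUSP7 call did not hold in 4 of 16 alternatives, which were those without MEF2C hairpin replicate 2 (adjusted p = 0.0999), without scramble replicate 3 (0.107), and those corrected for GC and length alone (0.0593) or together with a replicate block (0.0775). Over the 16 alternatives in edgeR, DESeq2 and limma-voom the adjusted p lay between 0.00776 and 0.107. DUSP9 had 0 to 4 reads in a library and was not tested. STYXL1, a catalytically inactive relative, measured 8.42 ± 0.671 CPM in MEF2C hairpin and 7.87 ± 0.816 CPM in scramble libraries (SD, n = 3 each; edgeR adjusted p = 0.423). Of the 4 genes DUSP7, DUSP8, DUSP9 and STYXL1, 3 were tested and 2 rose, beside 13.5% of all tested genes called higher.

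Promoter sequence was compared over 300-base windows, 250 bases before to 50 after the start, from RefSeq on GRCh38.p14, which held 8 of the 10 members. The cyclic AMP response element TGACGTCA, which reads alike on both strands, occurred in 1 member, DUSP1, and in 1.98% of 27305 windows. Among the other MAP kinase phosphatase, Sprouty and Spred genes it occurred at 2 places in DUSP8. All sites of the element in these families are shown with flanking bases, the element in capitals, in the direction of each gene.
DUSP1, chr5:172771303-172771330, minus strand: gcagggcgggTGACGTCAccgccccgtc
DUSP8, chr11:1572372-1572399, minus strand: cgggctccgcTGACGTCAcctgcccccg
DUSP8, chr11:1572328-1572355, minus strand: tggctgcaggTGACGTCAggggcttttt
The other motifs searched on both strands were the CArG box of serum response factor, the MEF2 site, the AP-1 site TGANTCA and the ETS site CCGGAAGT, and none of the 8 member windows held one. Of the other genes of these families, STYXL1 held 2 ETS sites and SPRED3 held 1 AP-1 site, and neither gene was called. They occurred in 1.29%, 3.09%, 7.76% and 4.44% of all windows in that order. A match is a description of letters, and the windows of SPRY1, SPRY2, DUSP16, DUSP10 and SPRED1 held none of the 5 motifs.

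The 3' UTRs of the members were searched for 7-base matches on the transcript with the longest coding sequence in GENCODE 29 on GRCh38. The heptamer GGAATGA, which pairs with bases 2 to 8 of the strand complementary to the stated hairpin target, occurred in none of the 10 members and in 10.2% of 11849 tested genes with a 3' UTR. In all of these genes the median log2 fold change was -0.03 with a match and -0.01 without. With a match 25.8% were called lower, against 20.4% without, and the median 3' UTR was 3040 bases against 820. The heptamers TTGAGAA and TGAGAAA had been picked out from earlier results of these data for lower genes; the median was -0.04 in the 27.5% of genes with either and 0.00 without, and 30.0% against 17.5% were called lower. Genes with either had longer 3' UTRs, with a median of 2610 bases against 633. DUSP16, which rose, held each heptamer at 2 places, SPRED1, which fell, held 1 match, and DUSP4 held 1 of each. The TTGAGAA sites of DUSP16 and SPRED1 are shown with that heptamer in capitals. Each DUSP16 site also matches TGAGAAA, whereas the SPRED1 site does not.
DUSP16, chr12:12475538-12475564, minus strand: aataaaacggTTGAGAAagctgagaag
DUSP16, chr12:12475133-12475159, minus strand: ttctctgtttTTGAGAAatggacagtt
SPRED1, chr15:38353116-38353142, plus strand: agggataaagTTGAGAAgtgtgccttt
The other 7 members held none of the 3 heptamers, DUSP10 among them, in 3' UTRs of 657 to 2022 bases. The part of these matches in the members' values was not tested.

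**Figure D3:**
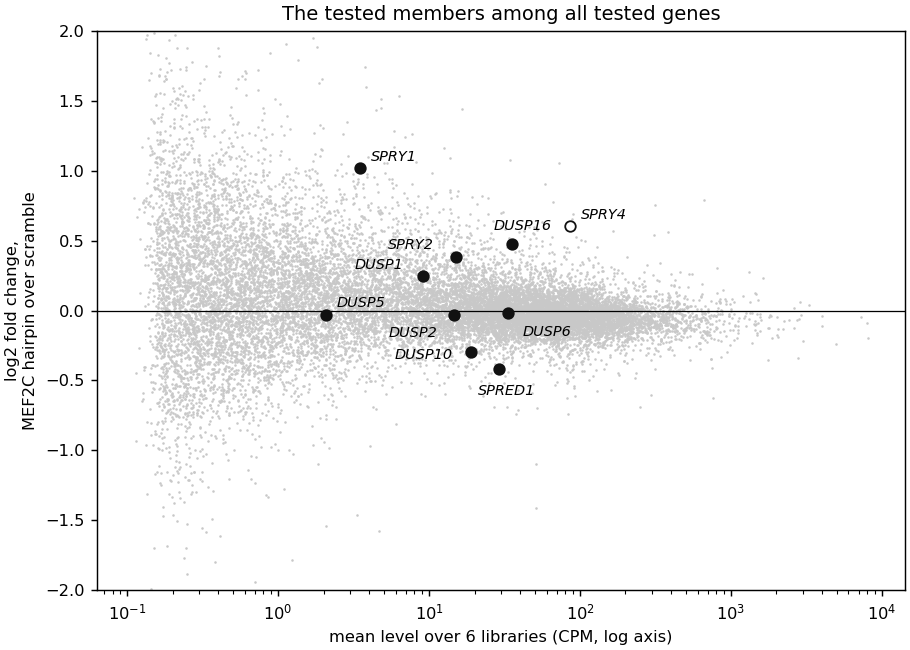
Log2 fold change of MEF2C hairpin over scramble libraries against mean level in CPM (log axis) for all tested genes (grey), with the 9 tested members (filled) and SPRY4 (open). The axis leaves out 24 genes beyond 2 in either direction. SPRY1 lies among low genes with a wide spread, whereas DUSP16, SPRY4 and SPRED1 lie at the edge of the narrower cloud of better expressed genes.

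The share of called genes depended on level, which bears on how the members compare with the rest. SPRY1 and DUSP5 lay in the class of 1 to 5 CPM, where 17.5% of genes were called and the median log2 fold change was 0.09. DUSP1, DUSP2, DUSP10 and SPRY2 lay in the class of 5 to 20 CPM, with 31.2% called and a median of 0.04. DUSP6, DUSP16 and SPRED1 lay in the class of 20 to 100 CPM, with 40.4% called and a median of -0.02. The direction also turned with level: in the class of 5 to 20 CPM 22.4% of genes were called higher and 8.75% lower, whereas in that of 20 to 100 CPM 17.0% were called higher and 23.5% lower. Of the 9 tested members 6 had groups that did not overlap in CPM, beside 39.9% of all tested genes.

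Levels between genes were compared per length, as CPM per kilobase of merged exons. In MEF2C hairpin libraries DUSP2 (7.46 ± 0.167), DUSP16 (7.14 ± 0.213) and DUSP6 (7.14 ± 0.100) led and overlapped with their neighbours in the order. DUSP10 (5.83 ± 0.296) and SPRY2 (5.65 ± 0.0804) followed and overlapped, ahead of DUSP1 (4.89 ± 0.180), SPRED1 (3.02 ± 0.125), SPRY1 (1.19 ± 0.0701) and DUSP5 (0.783 ± 0.0795), which were each apart from the next. In scramble libraries DUSP2 led alone at 7.66 ± 0.292, before DUSP6 (7.23 ± 0.0941) and DUSP10 (7.18 ± 0.152), which overlapped. DUSP16 came after them at 5.14 ± 0.0892, apart from both neighbours. SPRY2 (4.32 ± 0.329), DUSP1 (4.12 ± 0.0641) and SPRED1 (4.03 ± 0.275) overlapped as neighbours, as did DUSP5 (0.796 ± 0.138) and SPRY1 (0.582 ± 0.139). These are SDs over 3 libraries. DUSP4 was last in both groups at 0.00182 ± 0.00157 in MEF2C hairpin and 0.0101 ± 0.00476 in scramble libraries. DUSP16 stood above DUSP10 and level with DUSP6 in MEF2C hairpin libraries, and below both in scramble libraries. SPRY1 stood above DUSP5 in MEF2C hairpin libraries, whereas their order was not resolved in scramble libraries.

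**Figure D4:**
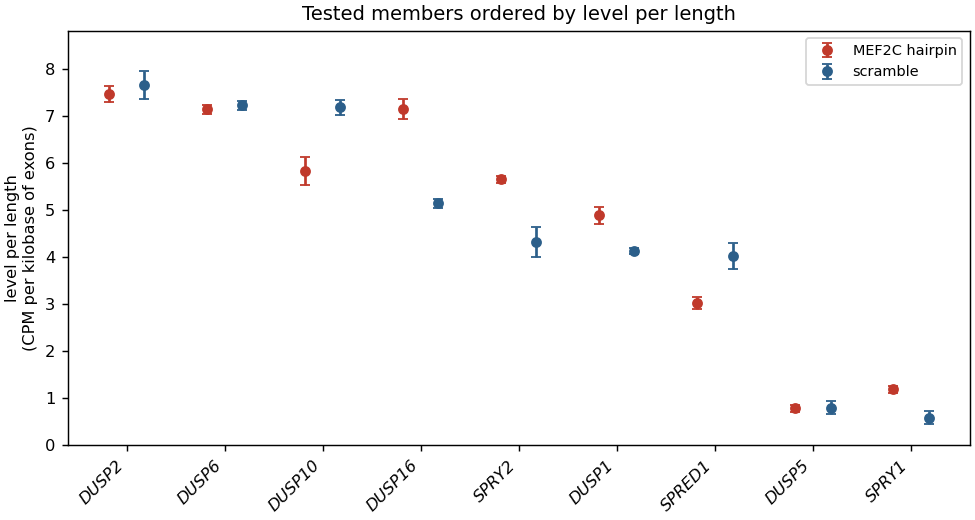
Level per length (CPM per kilobase of merged exons, linear axis from 0) of the 9 tested members, ordered by their scramble level. Points are means and bars SD of 3 libraries, with MEF2C hairpin left of scramble. DUSP16 stands at 7.14 in MEF2C hairpin and 5.14 in scramble libraries, whereas DUSP10 stands at 5.83 and 7.18; DUSP6 differs by less than its bars.

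The summed level of the 7 member phosphatases was 117 ± 1.23 CPM in MEF2C hairpin and 109 ± 1.70 CPM in scramble libraries (SD, n = 3 each), a ratio of 1.08 with all 3 MEF2C hairpin libraries higher (exact two-sided permutation p = 0.1, the smallest possible). That difference came with DUSP16: the other 6 summed to 75.4, 78.1 and 75.6 CPM in MEF2C hairpin libraries and to 78.0, 80.3 and 80.6 CPM in scramble libraries. The groups of that sum overlapped, with the lower mean in MEF2C hairpin libraries (ratio 0.959). DUSP16 was left out because it rose, so the sum without it restates the values above and adds no test. Among atypical dual-specificity phosphatases, which lack the MAP kinase docking domain, 8 of 14 were tested. Of these 2 rose and 2 fell, with a median log2 fold change of -0.03, while 13.5% of all tested genes were called higher and 15.3% lower. DUSP12 changed by -0.22 (SE 0.0475, adjusted p = 0.000449 by edgeR), DUSP19 by 0.97 (SE 0.301, 0.0119) and DUSP18 by 0.28 (SE 0.0854, 0.0120). DUSP19 measured 0.940 ± 0.0561 CPM in MEF2C hairpin and 0.485 ± 0.172 CPM in scramble libraries (SD, n = 3 each), and its call was lost without scramble replicate 3 (adjusted p = 0.0851; range 0.00427 to 0.0851 in edgeR, DESeq2 and limma-voom). The call of DUSP18 was lost without scramble replicate 2 (0.114) and in limma-voom after cyclic loess (0.0538; range 0.00598 to 0.114 in edgeR, DESeq2 and limma-voom), and other exons cover 38.1% of its exonic bases.

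Genes of the cascade that the members restrain were called in both directions. Of 26 genes from RAS activation to ERK, which were all tested, 3 rose, 9 fell and 14 did not pass the test, with a median log2 fold change of -0.02. NRAS, a RAS isoform, measured 176, 184 and 178 CPM in MEF2C hairpin libraries and 227, 217 and 220 CPM in scramble libraries (log2 fold change -0.30, SE 0.0243, adjusted p = 1.03e-12 by edgeR). RASGRP1, the exchange factor that activates RAS in T cells, measured 63.3, 64.2 and 60.5 CPM in MEF2C hairpin and 86.8, 78.3 and 85.2 CPM in scramble libraries (-0.41, SE 0.0354, adjusted p = 6.70e-12 by edgeR). GRB2, the adaptor that brings SOS to receptors, measured 192 ± 1.28 CPM in MEF2C hairpin and 221 ± 4.09 CPM in scramble libraries (SD, n = 3 each; -0.20, SE 0.0229, adjusted p = 5.37e-09 by edgeR). The groups did not overlap for these 3 genes, which were taken by smallest adjusted p and all fell. The 3 that rose were RASA3 by log2 0.36 (edgeR adjusted p = 4.41e-08), MAPK3 by 0.19 (0.000195) and NF1 by 0.07 (0.0315). Among genes of 100 CPM and over, where NRAS and GRB2 lie, 44.9% were called lower and 12.6% higher. In the class of 20 to 100 CPM, where RASGRP1 lies, 23.5% were called lower and 17.0% higher. Most of the 26 genes lay in these classes, in which called decreases outnumbered called increases among all genes.

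In the p38, JNK and ERK5 branches 21 of 22 genes were tested, of which 3 rose and 6 fell, with a median log2 fold change of -0.05. These 9 calls were 6 in limma-voom after cyclic loess, and most of the genes lay in the class of 20 to 100 CPM, with its 17.0% called higher and 23.5% lower. MAP2K6, a kinase that activates p38, measured 9.58, 10.0 and 8.98 CPM in MEF2C hairpin libraries and 13.6, 13.2 and 14.6 CPM in scramble libraries (-0.53, SE 0.0733, adjusted p = 3.41e-07 by edgeR). MAP2K6 lay in the class of 5 to 20 CPM, where 22.4% of genes were called higher and 8.75% lower. MAP3K5, or ASK1, measured 84.2 ± 0.871 CPM in MEF2C hairpin and 96.8 ± 1.67 CPM in scramble libraries (SD, n = 3 each; -0.20, SE 0.0289, adjusted p = 7.64e-07 by edgeR). MAPK8, which encodes JNK1, a substrate of DUSP10 and DUSP16, measured 63.9 ± 1.63 CPM in MEF2C hairpin and 74.1 ± 0.633 CPM in scramble libraries (SD, n = 3 each; -0.21, SE 0.0326, adjusted p = 2.42e-06 by edgeR). These 3 genes were taken by smallest adjusted p, and all fell. The 3 that rose were MAPK12 by log2 0.97 (edgeR adjusted p = 0.00482), MAP2K4 by 0.20 (0.000156) and MAP2K7 by 0.10 (0.0127). MAPK12 rested on 21 to 121 reads in a library, and another gene covers 29.3% of its exonic bases.

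Among 21 genes that ERK signalling is known to induce, 15 were tested, of which 5 rose and 2 fell, with a median log2 fold change of 0.01. SPRY4, described above, is one of the 5 that rose, with EGR1, IER3, FOS and IER2. The 2 that fell were IER5 (log2 fold change -0.22, SE 0.0542, adjusted p = 0.00179 by edgeR) and ETV5 (-0.12, SE 0.0398, adjusted p = 0.0253 by edgeR). Across all tested genes 13.5% were called higher and 15.3% lower. The 7 calls of this list were 10 in limma-voom after cyclic loess, and 5 to 7 when 1 library was left out. EGR1, an immediate early transcription factor, measured 133, 125 and 128 CPM in MEF2C hairpin libraries and 99.0, 105 and 97.0 CPM in scramble libraries (0.36, SE 0.0294, adjusted p = 1.67e-12 by edgeR). IER3, an immediate early gene, measured 6.82, 6.29 and 8.11 CPM in MEF2C hairpin and 4.49, 4.64 and 4.27 CPM in scramble libraries (0.66, SE 0.109, adjusted p = 9.16e-06 by edgeR), and its antisense gene covers 26.5% of its exonic bases. DUSP6, itself such a gene, differed by less than its spread, as given above.

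The genes whose profile over the 6 libraries was most like that of SPRY1, the member with the largest called change, were TNFSF10, NCEH1 and EFEMP1. Likeness was the root mean square difference of centred log2 CPM, searched among genes of at least 5 CPM, and came to 0.135, 0.161 and 0.163. SPRY1 itself lay under that limit, with a mean of 3.51 CPM. TNFSF10, which encodes TRAIL, changed by log2 1.08, NCEH1 by 1.17 and EFEMP1 by 1.17, beside 1.02 for SPRY1. Similar changes followed from the choice by profile over the same libraries and add no test.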

How the data were processed

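RNA sequencing was available for 3 MEF2C hairpin and 3 scramble libraries. The authors deposited raw read counts, 1 whole number for each gene, made with Trim Galore, STAR and HTSeq on hg38, per the submitters' processing notes; versions, annotation release and strand setting are not given in the sources used here. Libraries were TruSeq from TRIzol RNA, per the labels' protocols. The 5 summary lines that name no gene took 19.2% to 31.4% of reads and were left out; reads aligned to more than 1 place took 3.56% to 16.1%, highest in MEF2C hairpin replicate 3.

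Identifiers were matched without version to a symbol table (94.2% of tested genes); positions, exon lengths and GC content came from GENCODE 29 on GRCh38 (90.0%). Genes passing filterByExpr (minimum count 10) were scaled by TMM and tested in edgeR 4.0.16 (R 4.3.3) with a robust quasi-likelihood fit on group, with Benjamini-Hochberg adjustment over all 17677 genes. Each SE was obtained by dividing the absolute log2 fold change by the root of its F statistic, and CPM uses TMM-scaled library sizes. Intervals and floors cover counting error only where they come from reads. The permutation test used scipy 1.17.1. Alternatives were RLE and upper-quartile scaling, cyclic loess, no filter, a stricter filter (1 CPM in 3 libraries), each library left out in turn, a fit with a replicate block, DESeq2 1.42.0, limma-voom (limma 3.58.1), and a GC and length correction.

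The members, lists and tests were chosen with earlier results of these data known. Named genes are the members, MEF2C, all other Sprouty, Spred and MAP kinase phosphatase genes, up to 3 called genes of each other list taken by smallest adjusted p, and the 3 genes most like the member with the largest called change. The genes that rose in the RAS to ERK and the p38, JNK and ERK5 lists were named besides. So were the remaining called genes of the list that ERK induces. Markers were named as identity checks. Replicate libraries differed beyond sampling noise (chi-square per gene 3.31 to 4.50, where noise alone gives about 1), so none was taken for a library deposited again; this does not show that they came from separate cultures.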

Additional observations from a re-analysis of the deposited data

How the results depend on the processing

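Over 16 alternatives the 6 called members kept their direction in all 96 results and their call in 92, the exceptions being the 4 of DUSP1 given above. The number of called members was 6, and 5 to 6 when 1 library was left out; it was 5 after cyclic loess, which removes a trend with expression level. Of the other MAP kinase phosphatases 2 were called, 1 with the GC and length correction, 1 with that correction and a replicate block, and 1 to 2 without 1 library; the call lost was that of DUSP7 in each. Of the atypical phosphatases 4 were called, and 2 to 4 without 1 library, with 2 without scramble replicate 2. DUSP5 ran from -0.15 to 0.11 on the log2 scale and SPRED2 from -0.0314 to 0.048 when 1 library was left out, and DUSP6 was at 0.00046 with the GC and length correction; none of these was called. The count of all called genes was 5097, of which 46.8% were higher, and 4113 to 4608 without 1 library. Same-numbered libraries of the groups did not vary together (correlations of their deviations from the group means of -0.01, -0.01 and -0.00). No pairing by number was seen, but with 3 libraries in a group this does not show how same-numbered libraries were handled. The replicate block gave 4892 called genes and 6 called members. Too few reads kept DUSP4, with at most 6 in a library, and DUSP9, with at most 4, out of the test.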
